A study of Mus musculus with 6 samples.

Results

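The genes described here are Ctgf, Thbs1, Thbs2, Thbs3, Postn, Tnc, Sparc and Fn1, which encode connective tissue growth factor, 3 thrombospondins and other matricellular proteins, together with fibronectin. They were picked by symbol, and all 8 were found among the 54532 genes of the deposited count table, each under 1 identifier. They were chosen with their lower values under estrogen already known, so that comparison is given for them as a description, without a test. The tissue was iWAT, the inguinal white fat depot under the skin, taken from aged mice. The estrogen group (3 libraries) is labelled as estrogen treated and the vehicle group (3 libraries) as vehicle treated, both with 7 days of cold. The titles do not say when treatment was given relative to the cold. Strain, sex, age in months, and the dose and route of estrogen are not stated in the labels, and these also leave it unstated whether libraries stem from different mice. The p-values given below thus measure the spread between these samples, part of which may be technical.

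Matricellular proteins are secreted into the extracellular matrix but mainly act on cells, by binding integrins, proteoglycans, growth factors and collagen, rather than as load-bearing fibres. In fat depots they are made largely by fibroblasts and adipocyte progenitors, and their levels go up in wound repair and fibrosis. Fibronectin is a structural glycoprotein that cells assemble into fibrils and on which several of these proteins are deposited.

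Total counts were between 16046601 and 20736771 per library. The labelled tissue carried adipocyte markers in every library, with a summed level of 6 markers of 16450 to 25350 CPM (reads scaled to equal, TMM-adjusted library sizes) with estrogen and 11580 to 15510 CPM with vehicle. Some libraries stood apart in markers of other tissues. The 6 skeletal muscle markers summed to 7007 CPM in estrogen replicate 1, against 2.65 to 59.3 CPM in the other 5 libraries. The 6 B cell markers summed to 151 and 99.0 CPM in estrogen replicates 1 and 3, against 3.96 to 6.64 CPM in the others. The 6 neutrophil markers summed to 70.1 CPM in vehicle replicate 1, against 9.46 to 18.7 CPM elsewhere. Across all 15591 genes tested, edgeR's quasi-likelihood test with Benjamini-Hochberg adjustment called 0 genes higher and 0 lower at an adjusted p of 0.05 (0% in each direction), while 1480 (9.49%) were higher and 1705 (10.9%) lower at an unadjusted p under 0.05. DESeq2, run as an alternative, called 386 higher (2.75%) and 468 lower (3.34%).

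All 8 genes lay lower in the estrogen libraries, and for each of them the highest estrogen library was below the lowest vehicle library. Among all tested genes, 14.7% had groups that did not overlap in this direction, and nothing is read from the 8 of 8, since this contrast chose them. Their log2 fold changes, estrogen over vehicle, ran from -3.15 (Tnc) to -1.23 (Sparc), with a median of -2.17, against a median of 0.0025 over all tested genes. Together they took 0.110 to 0.333% of all counts in the estrogen libraries, against 0.585 to 1.39% in the vehicle libraries. In RNA from whole tissue, fewer cells of a type and less RNA per cell cannot be told apart.

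**Figure D1:**
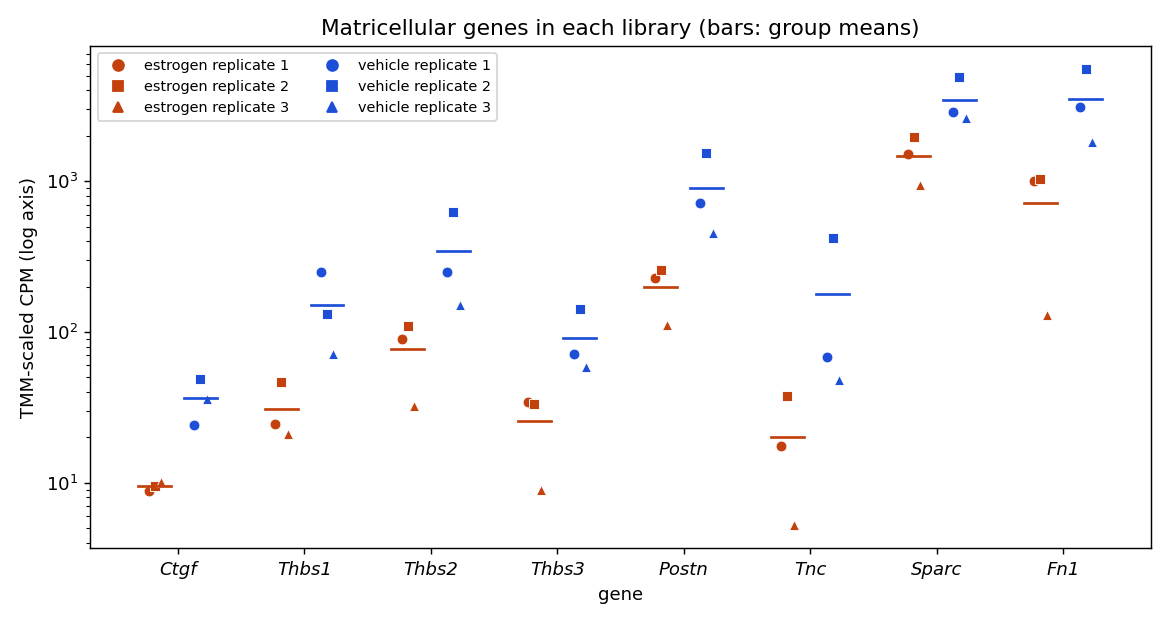
TMM-scaled CPM (log axis) of each of the 8 genes in each library, estrogen libraries (orange-red) left of vehicle libraries (blue), with replicates as symbols and group means as bars. In every gene the 3 estrogen libraries sit below the 3 vehicle libraries, the 3 estrogen values of Ctgf lie between 8.81 and 10.1 CPM, and those of Fn1 spread from 129 to 1032 CPM.

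Ctgf encodes a secreted CCN family protein that binds integrins and growth factors and is a widely used readout of the YAP and TEAD transcription factors and of TGF-beta signalling (ENSMUSG00000019997, chromosome 10, 24595442 to 24598683 on the plus strand, mm10). Its level was 8.81, 9.56 and 10.1 CPM in estrogen replicates 1 to 3, against 24.2, 48.8 and 36.0 CPM in vehicle replicates 1 to 3. The estrogen libraries were nearly level with one another, and the lowest vehicle library was 2.395 times the highest estrogen library, the widest such gap of the 8 genes. The log2 fold change was -1.94 ± 0.25 (SE), and it ran from -2.16 without vehicle replicate 1 to -1.67 without vehicle replicate 2. Behind these values stood 145 to 170 reads per estrogen library and 476 to 964 per vehicle library.

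The thrombospondins are secreted glycoproteins. Thbs1 and Thbs2 form trimers that bind CD36 and CD47, and thrombospondin 1 also activates latent TGF-beta and is stored in platelets, while Thbs3 belongs to the pentameric subgroup. Thbs1 (ENSMUSG00000040152, chromosome 2, 118111876 to 118127133, plus strand) was at 24.7, 46.4 and 21.1 CPM in estrogen replicates 1 to 3, against 250.3, 132 and 71.0 CPM in vehicle replicates 1 to 3. Its highest value, in vehicle replicate 1, was unlike the other 7 genes, whose highest library was vehicle replicate 2. The log2 fold change of Thbs1 was -2.30 ± 0.50, and -1.73 without vehicle replicate 1.

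The platelet marker Ppbp moved with Thbs1 in vehicle replicate 1. Ppbp was at 1.04, 2.16 and 1.81 CPM in estrogen replicates 1 to 3, against 28.3, 1.11 and 1.22 CPM in vehicle replicates 1 to 3. Pf4, which resident macrophages also express, was at 47.5, 77.1 and 13.8 CPM with estrogen, against 190.3, 90.8 and 68.2 CPM with vehicle. Other platelet genes did not share that peak. Itga2b was at 5.74 CPM in vehicle replicate 1 and at 4.60 to 10.5 CPM in the other 5 libraries. Gp9 was at 0.102 CPM in vehicle replicate 1, and Gp1bb had no read in any library. Gp1ba lay the other way between the groups, at 2.07, 1.24 and 1.81 CPM with estrogen, against 0.66, 0.81 and 0.61 CPM with vehicle. The 6 platelet markers summed to 28.7 to 86.1 CPM with estrogen and 74.7 to 225 CPM with vehicle, and Pf4 made up most of each vehicle sum. The part of platelets in the Thbs1 values was not tested.

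Thbs2 (ENSMUSG00000023885, chromosome 17, 14665500 to 14694235, minus strand), whose product is made mainly by fibroblasts and restrains collagen fibril growth and vessel growth in mice, was at 89.2, 109.7 and 32.5 CPM in estrogen replicates 1 to 3, against 250.5, 625 and 151 CPM in vehicle replicates 1 to 3. Its log2 fold change was -2.15 ± 0.62, and -1.38 without vehicle replicate 2. Thbs3 (ENSMUSG00000028047, chromosome 3, 89215180 to 89226837, plus strand) was at 34.1, 33.5 and 8.91 CPM in estrogen replicates 1 to 3, against 71.2, 142 and 58.8 CPM in vehicle replicates 1 to 3. In both genes estrogen replicate 3 was far under the other estrogen libraries and vehicle replicate 2 far over the other vehicle libraries. The log2 fold change of Thbs3 was -1.83 ± 0.54. Thbs3 overlaps Mtx1 on the opposite strand, which had at most 535 reads in a library. The strand setting of the counting is not stated, so reads of the overlap cannot be assigned to either gene with certainty.

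The relation between Thbs1 and Thbs2 was not fixed. Per gene length, Thbs1 was at 0.319, 0.487 and 0.750 times the level of Thbs2 in estrogen replicates 1 to 3, and at 1.15, 0.244 and 0.542 times in vehicle replicates 1 to 3. The groups overlapped in this ratio, and its lowest and highest values were both vehicle libraries.

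Postn encodes periostin, a collagen-binding protein of activated fibroblasts (ENSMUSG00000027750, chromosome 3, 54361109 to 54391037, plus strand). It was at 227, 258 and 111 CPM in estrogen replicates 1 to 3, against 715, 1545 and 453 CPM in vehicle replicates 1 to 3, with a log2 fold change of -2.19 ± 0.51, and -1.56 without vehicle replicate 2. Tnc encodes tenascin C, a hexameric protein that modulates adhesion to fibronectin and appears in injured or remodelling tissue (ENSMUSG00000028364, chromosome 4, 63959785 to 64047015, minus strand). Tnc was at 17.6, 37.5 and 5.22 CPM in estrogen replicates 1 to 3, against 68.1, 419 and 48.0 CPM in vehicle replicates 1 to 3. A single vehicle library, replicate 2, held most of the Tnc signal of its group. The log2 fold change of Tnc was -3.15 ± 1.02, the lowest of the 8, but -1.53 without vehicle replicate 2, which is above those of Thbs1, Fn1, Ctgf and Postn in the same libraries (-2.39, -1.77, -1.67 and -1.56). Without estrogen replicate 2 it was -3.96.

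Sparc encodes osteonectin, a collagen-binding protein that in mice is needed for normal collagen deposition and limits fat accumulation (ENSMUSG00000018593, chromosome 11, 55394500 to 55423183, minus strand). It was at 1509, 1975 and 947 CPM in estrogen replicates 1 to 3, against 2859, 4925 and 2625 CPM in vehicle replicates 1 to 3. It had the smallest difference of the 8, a log2 fold change of -1.23 ± 0.35. Fn1, fibronectin (ENSMUSG00000026193, chromosome 1, 71585520 to 71653200, minus strand), was at 1000.1, 1032 and 129 CPM in estrogen replicates 1 to 3, against 3102, 5559.9 and 1823 CPM in vehicle replicates 1 to 3. Estrogen replicates 1 and 2 were close to each other, and estrogen replicate 3 was far below both. The log2 fold change of Fn1 was -2.28 ± 0.77, and -1.77 without vehicle replicate 2.

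The spread within groups was not used to choose the genes. Compared with the median within-group SD of 0.26 (log2 CPM) over all tested genes, Ctgf had a pooled within-group SD of 0.36, Sparc 0.51, Thbs1 0.77, Postn 0.79, Thbs3 0.91, Thbs2 0.99, Fn1 1.34 and Tnc 1.55. Of all tested genes, 65.9% had a smaller SD than Ctgf and 99.0% a smaller one than Tnc. Ctgf was uniform only among the estrogen libraries, where its SD was 0.098, against 0.51 among the vehicle libraries. The smaller SD rests on 145 to 170 reads per estrogen library, and whether it is a trait of the gene was not tested. The estrogen SD of the other 7 ran from 0.54 (Sparc) to 1.72 (Fn1).

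The genes shared much of that spread. Vehicle replicate 2 was the highest vehicle library for 7 of the 8 genes, the exception being Thbs1, and vehicle replicate 3 the lowest for 7 of the 8, the exception being Ctgf. Estrogen replicate 3 was the lowest estrogen library for 7 of the 8, where Ctgf, which had its highest estrogen value there, was the exception. Over all tested genes, vehicle replicate 2 was the highest vehicle library for 34.6%, vehicle replicate 3 the lowest for 35.8%, and estrogen replicate 3 the lowest estrogen library for 37.7%. In estrogen replicate 3, Fn1 was at -1.98 and Tnc at -1.52 log2 units from the estrogen mean, while Ctgf was at 0.09. In vehicle replicate 1, Thbs1 was at 0.91 log2 units from the vehicle mean and Ctgf at -0.53.

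**Figure D2:**
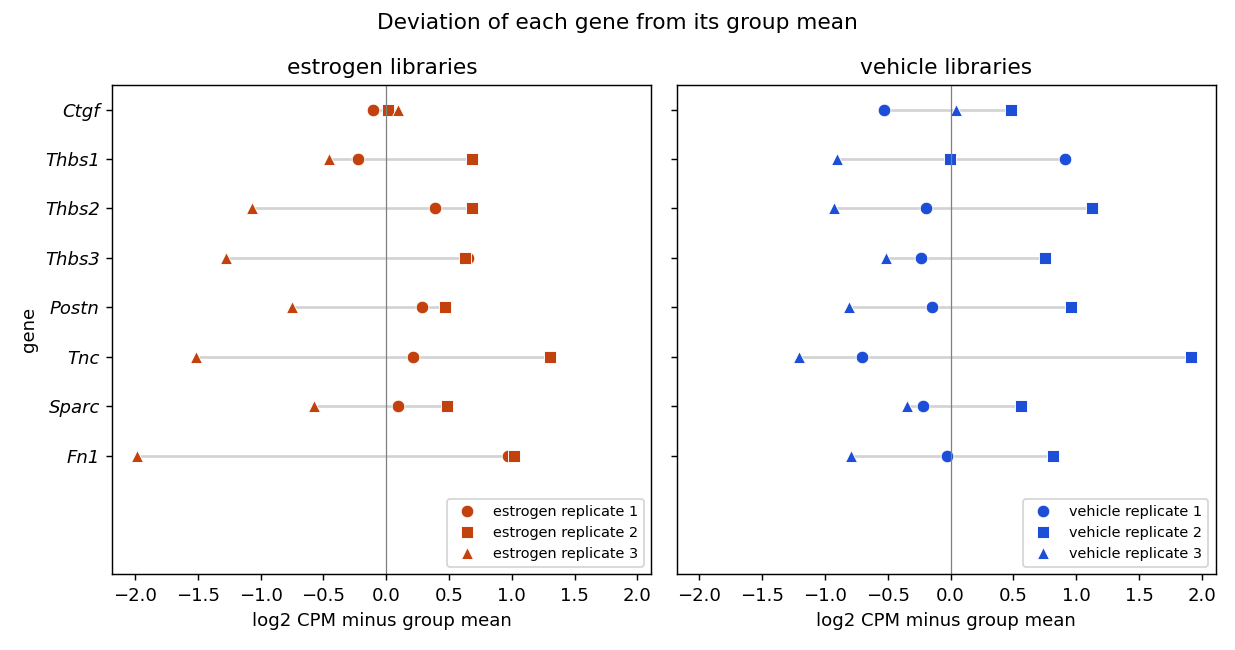
Each gene's log2 CPM minus the mean of its group, for the estrogen libraries (left) and the vehicle libraries (right), with replicates as symbols. Estrogen replicate 3 is the leftmost symbol for every gene but Ctgf, and vehicle replicate 2 is the rightmost for every gene but Thbs1.

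Markers of progenitors, fibroblasts and macrophages moved with these values, and adipocyte markers moved the other way. The 6 adipocyte markers summed to 16450, 16940 and 25350 CPM with estrogen and 15100, 11580 and 15510 CPM with vehicle. That sum was highest in estrogen replicate 3 and lowest in vehicle replicate 2. The median log2 fold change of the adipocyte markers was 0.50, with 5 above 0 and 1 under. The 7 progenitor and fibroblast markers summed to 1457, 1290 and 666 CPM in estrogen replicates 1 to 3, against 1676, 3881 and 2110 CPM in vehicle replicates 1 to 3, so that the lowest and the highest of the 6 libraries were the same as for Postn, Thbs2 and Tnc. Their median log2 fold change was -1.26, and all 7 of 7 were under 0. The 6 macrophage markers summed to 1213, 1439 and 451 CPM with estrogen and 2220, 2715 and 1927 CPM with vehicle, with a median log2 fold change of -1.09. Smooth muscle and pericyte markers summed to 506 to 920.5 CPM with estrogen and 499 to 631 CPM with vehicle, the top value being in estrogen replicate 1, where Des, which skeletal muscle also expresses, was at 422 CPM. Endothelial markers summed to 532 to 730.4 CPM with estrogen and 443 to 612 CPM with vehicle, and the sums of both lists overlapped between the groups. Of the 8 smooth muscle and pericyte markers, 5 had a log2 fold change under 0 and 3 above. Acta2 alone among them had groups without overlap, at 43.0, 43.8 and 42.3 CPM with estrogen, against 61.2, 103.8 and 68.2 CPM with vehicle. Over all tested genes, 14.7% had no overlap in this direction. Markers of mesothelium, of mammary and skin epithelium, and of tendon and cartilage each summed to at most 4.40 CPM in any library, and Krt14 and Krt5 had no read at all. The part of any cell type in the lower matricellular levels was not tested.

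Levels between genes were compared per gene length, as FPKM (the TMM-scaled CPM divided by gene length), from the gene lengths of the deposited table. Sparc stood at the top, with 390 ± 136 FPKM with estrogen and 916 ± 334 FPKM with vehicle (SD, n = 3 each). Fn1 followed with 61.7 ± 43.9 FPKM and 299 ± 163 FPKM, then Postn with 22.8 ± 8.95 FPKM and 104 ± 65.5 FPKM, and Thbs2 with 11.0 ± 5.71 FPKM and 48.9 ± 35.7 FPKM. Thbs1 had 5.06 ± 2.25 FPKM with estrogen and 24.9 ± 15.0 FPKM with vehicle, Thbs3 5.29 ± 2.98 FPKM and 18.8 ± 9.29 FPKM, Ctgf 3.32 ± 0.226 FPKM and 12.7 ± 4.30 FPKM, and Tnc 2.59 ± 2.10 FPKM and 23.0 ± 26.9 FPKM.

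In this order by mean log2 FPKM over the 6 libraries, Sparc was above Fn1 in 6 of 6 libraries, by 2.40 ± 1.12 log2 units (SD), and Postn above Thbs2 in 6 of 6, by 1.15 ± 0.20. A two-sided exact sign-flip permutation test gave p = 0.0313 for both pairs, the smallest p that 6 libraries allow, and 0.109 after Benjamini-Hochberg adjustment over the 7 neighbouring pairs. The neighbours were set by the order in these same 6 libraries. These span both groups, so each SD includes any difference between the treatments. Fn1 was above Postn, and Thbs2 above Thbs1, in 5 of 6 libraries (exact permutation p = 0.0625, adjusted p = 0.109 for each). The neighbours Thbs1 and Thbs3, Thbs3 and Ctgf, and Ctgf and Tnc did not differ beyond their spread (exact permutation adjusted p = 0.656, 0.35 and 0.688), and changed places between libraries. In estrogen replicate 3 the order was different, as Fn1 was at 11.0 FPKM and Postn at 12.7 FPKM there.

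**Figure D3:**
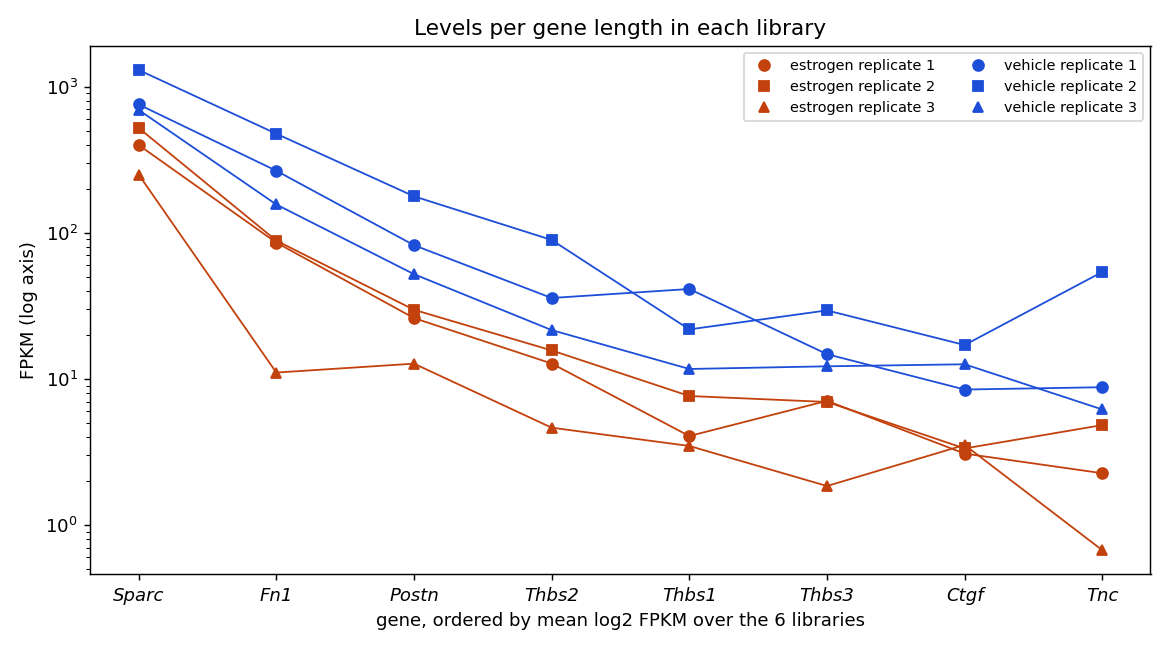
FPKM (log axis) of the 8 genes in each library, ordered from left to right by the mean log2 FPKM over the 6 libraries, with estrogen libraries in orange-red and vehicle libraries in blue. Sparc is the top gene in every library, the lines of Thbs1, Thbs3, Ctgf and Tnc cross, and the drop of Fn1 in estrogen replicate 3 to 11.0 FPKM is visible.

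Promoter sequences were taken from RefSeq (GRCm38.p6, the assembly named mm10), where 5 of the 8 genes, Thbs2, Thbs3, Postn, Tnc and Sparc, had a window. The 250 bases before the annotated start were searched on both strands for the TEAD motif CATTCC, the SMAD motif CAGACA, the AP-1 motif TGANTCA, the TATA box TATAAA, the palindromic estrogen response element and the CArG box bound by serum response factor. Postn, Thbs2 and Tnc deviated together among the libraries, as did Thbs3 and Sparc, whose windows are not printed. The windows of Postn, Thbs2 and Tnc nearest to the start in the deposited table are shown here. Each reads 5′ to 3′ on the gene's own strand and ends at the base before the start, with capitals marking any motif found. They lie at chr3:54360857-54361106 (Postn, plus strand), chr17:14694263-14694512 (Thbs2, minus strand) and chr4:64047016-64047265 (Tnc, minus strand).
Postn: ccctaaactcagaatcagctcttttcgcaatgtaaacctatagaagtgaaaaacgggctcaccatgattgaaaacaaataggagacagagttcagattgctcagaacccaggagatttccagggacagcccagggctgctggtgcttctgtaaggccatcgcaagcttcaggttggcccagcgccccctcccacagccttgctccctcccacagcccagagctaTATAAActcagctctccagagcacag
Thbs2: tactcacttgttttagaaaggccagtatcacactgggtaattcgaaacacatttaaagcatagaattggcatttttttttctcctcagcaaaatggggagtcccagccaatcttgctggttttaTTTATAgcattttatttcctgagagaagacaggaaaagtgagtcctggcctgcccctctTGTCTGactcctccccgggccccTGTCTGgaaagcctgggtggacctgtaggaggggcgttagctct
Tnc: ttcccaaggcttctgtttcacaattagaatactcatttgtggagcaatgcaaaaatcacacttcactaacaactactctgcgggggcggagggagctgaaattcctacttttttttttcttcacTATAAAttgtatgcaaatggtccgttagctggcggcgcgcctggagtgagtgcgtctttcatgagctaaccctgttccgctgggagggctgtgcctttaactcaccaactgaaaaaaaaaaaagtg

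In the Postn window the capitals mark a TATA box that begins 26 bases before the start. The Thbs2 window held 2 copies of the SMAD motif, both read on the opposite strand and beginning 67 and 44 bases before the start, and a TATA box match on the opposite strand. The Tnc window held a TATA box match 126 bases before the start. Among the windows not printed, that of the alternative Tnc start held a SMAD motif 71 bases and a TATA box match 205 bases before that start. The Sparc window held a SMAD motif 36 bases before its start. The windows of Thbs3 and of the alternative Postn start held none of the motifs searched. None of the 7 member windows, counting alternative starts of Postn and Tnc, held the TEAD motif, the AP-1 motif, the estrogen response element or the CArG box in these letters. The only Sparc window lay at a start 3103 bases from that in the deposited table, so the bases before the latter were not searched. Of all 32817 promoter windows of the same length, 12.6% held the TEAD motif, 17.1% the SMAD motif, 6.75% the AP-1 motif, 12.4% the TATA box, 0.064% the estrogen response element and 1.47% the CArG box. A match is a run of letters and not a binding site, and the windows leave out distal elements.

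The relatives of these genes were examined as a list of 19, of which 15 were tested (Wisp3, Tnr, Spock1 and Spock3 were too low). By edgeR, 0 of the 15 were higher and 0 lower at the adjusted threshold, and 1 was higher and 7 lower at an unadjusted p under 0.05, against 9.49 and 10.9% of all tested genes. Their median log2 fold change was -1.25, with 12 of 15 under 0, and 8 of 15 had all estrogen libraries below all vehicle libraries, against 14.7% of all tested genes. By DESeq2, 4 of 15 were lower and 0 higher, against 3.34 and 2.75% of all genes. The lists named here and below were chosen with earlier results of these data known.

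Among the CCN relatives of Ctgf, Cyr61, which like Ctgf is induced by YAP and TEAD, was at 29.0, 20.2 and 19.9 CPM in estrogen replicates 1 to 3, against 31.6, 55.9 and 55.7 CPM in vehicle replicates 1 to 3. Its log2 fold change was -1.05 ± 0.26, smaller in size than that of Ctgf, and the groups came close, at 29.0 and 31.6 CPM, in replicate 1 of each. Nov was at -1.99 ± 0.76, Wisp1 at -2.81 ± 0.84 (-1.93 without vehicle replicate 2) and Wisp2 at -1.58 ± 0.58 on the same log2 scale. Each of the 3 had estrogen replicate 3 as its lowest and vehicle replicate 2 as its highest library, as Postn did. Ctgf shared the highest library with them but had its lowest value in estrogen replicate 1.

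Among the other relatives, Tnn, tenascin N, was at 0.466, 0.0655 and 0.418 CPM with estrogen, against 1.37, 13.8 and 0.651 CPM with vehicle, so that its log2 fold change of -4.00 came largely from vehicle replicate 2 and was -1.63 without it. Tnxb, the tenascin of loose connective tissue, was at -1.26 ± 0.55, Thbs4 at -2.04 ± 0.93 (-0.64 without vehicle replicate 2 and -3.24 without estrogen replicate 1), and Comp, cartilage oligomeric matrix protein, at -0.52 ± 0.61 (0.37 without vehicle replicate 3). Tgfbi, the closest paralog of Postn, was at -0.90 ± 0.27, and Fstl1, a SPARC-related glycoprotein, at -1.86 ± 0.65. Sparcl1, the closest paralog of Sparc, was at 199.8, 209.8 and 203 CPM in estrogen replicates 1 to 3, against 138, 176 and 259.8 CPM in vehicle replicates 1 to 3, and the groups overlapped. Its log2 fold change was 0.09 ± 0.23, and -0.10 without vehicle replicate 1, beside the -1.23 of Sparc. Smoc1, another SPARC family gene, was at 189, 212 and 348 CPM with estrogen, against 161, 119 and 162 CPM with vehicle, a log2 fold change of 0.76 ± 0.26, with all estrogen libraries above all vehicle libraries, as in 12.8% of all tested genes. Smoc2 and Spock2 were at -1.02 ± 0.46 and 0.08 ± 0.26, and Spock2 was at -0.07 without replicate 1 of either group. Spp1, osteopontin, a product of lipid-associated macrophages in fat, was at 25.2, 259 and 7.66 CPM with estrogen, against 107, 450.1 and 135 CPM with vehicle. Its log2 fold change was -1.25 ± 1.19, but -3.81 with estrogen replicate 2 left out and -0.31 with vehicle replicate 2 left out. With estrogen replicates 1 and 3 both left out, so that only estrogen replicate 2 remained in its group, the Spp1 value was 0.18.

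**Figure D4:**
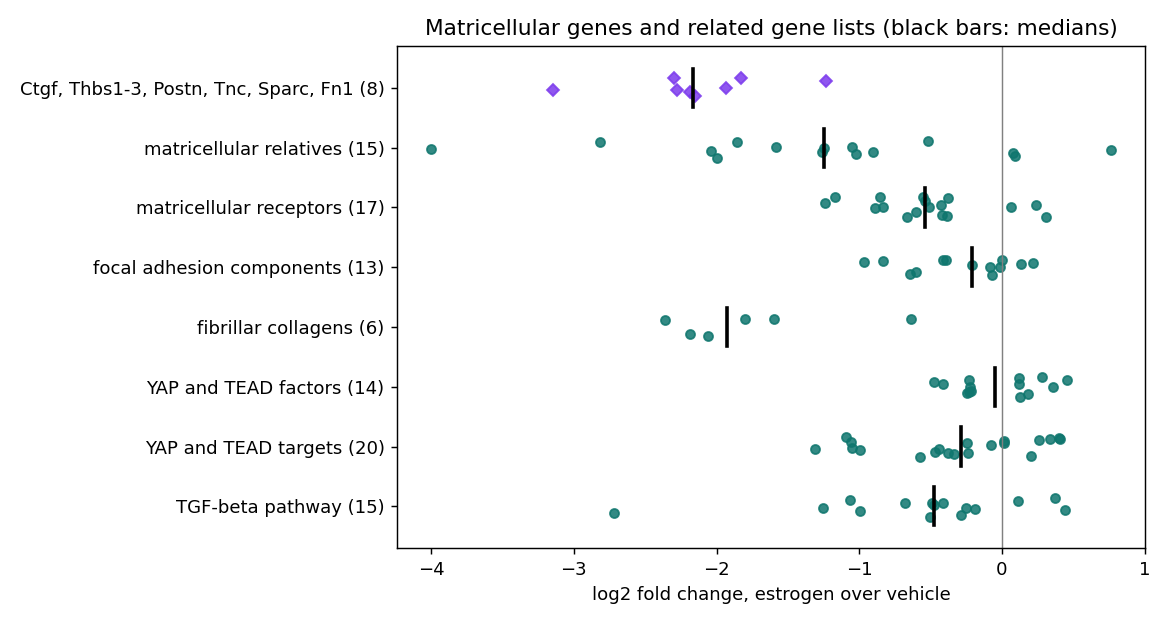
Log2 fold changes, estrogen over vehicle, of the 8 genes (diamonds) and of the tested members of the related gene lists (dots, numbers tested in parentheses), with medians as black bars. The medians run from -2.17 for the 8 genes and -1.93 for the fibrillar collagens to -0.05 for the YAP and TEAD factors. By edgeR no gene shown as a dot passed the adjusted threshold, while DESeq2 called some in every list but the YAP and TEAD factors.

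The receptors through which cells bind these proteins are integrins, syndecans, CD36, CD47, LRP1 and others. Of 18 listed, 17 were tested, and by edgeR 0 were higher and 0 lower (0 and 10 at an unadjusted p under 0.05, against 9.49 and 10.9% of all tested genes, and by DESeq2 0 and 4, against 2.75 and 3.34%). Their median log2 fold change was -0.54, with 14 of 17 under 0, and 10 of 17 had all estrogen libraries below all vehicle libraries, against 14.7% of all tested genes. Itga5, the alpha subunit of the classical fibronectin receptor, was at 34.9, 50.4 and 20.3 CPM in estrogen replicates 1 to 3, against 81.1, 105 and 63.5 CPM in vehicle replicates 1 to 3, with a log2 fold change of -1.24 ± 0.34. Itgav, the alpha subunit of vitronectin-type receptors that also bind periostin and fibronectin, was at -0.86 ± 0.19, its partner Itgb3 at -1.17 ± 0.34, and Calr, calreticulin, a partner of LRP1 in thrombospondin signalling, at -0.51 ± 0.15. The edgeR adjusted p was 0.207 for each of these 4 genes.

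Focal adhesion components, which couple integrins to actin, had a median log2 fold change of -0.21, with 10 of 13 under 0, and by edgeR 0 of the 13 were higher and 0 lower (0 and 6 at an unadjusted p under 0.05, against 9.49 and 10.9% of all genes, and by DESeq2 0 and 3, against 2.75 and 3.34%). The members with the smallest p were Actn1 at -0.64 ± 0.15, Zyx at -0.97 ± 0.26, Flna at -0.83 ± 0.24 and Pxn at -0.60 ± 0.20 (edgeR adjusted p = 0.207 for each). The fibrillar collagens, which bind Sparc, Thbs2 and Postn products, had a median of -1.93, with 6 of 6 under 0 and 6 of 6 without overlap between the groups, against 14.7% of all tested genes. By edgeR 0 were higher and 0 lower (0 and 5 at an unadjusted p under 0.05, against 9.49 and 10.9% of all genes, and by DESeq2 0 and 2, against 2.75 and 3.34%). Col1a1 was at 1197, 2395 and 162 CPM in estrogen replicates 1 to 3, against 4724, 11340 and 3182 CPM in vehicle replicates 1 to 3, so its lowest and highest libraries were those of Fn1 and Tnc.

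Ctgf is often read as a target of YAP and TEAD, so the factors and their other targets were set beside it. The 14 factors and their upstream kinases had a median log2 fold change of -0.05, with 7 under 0 and 7 above, and the median was just above 0, at 0.0066 and 0.0076, without estrogen replicate 2 and without vehicle replicate 2. None was called by edgeR or by DESeq2. At an unadjusted p under 0.05 edgeR had 0 higher and, against 10.9% of all genes, 1 lower, Tead3 (-0.48 ± 0.17, adjusted p = 0.212). Yap1 and Wwtr1, the coactivators, named after their values were seen, were at -0.23 ± 0.16 and -0.23 ± 0.16. Of 22 listed targets other than Ctgf, 20 were tested, with a median of -0.29 and 13 of 20 under 0, and by edgeR 0 were higher and 0 lower (0 and 6 at an unadjusted p under 0.05, against 9.49 and 10.9% of all genes, and by DESeq2 0 and 3, against 2.75 and 3.34%). After Rbms3 (-1.06 ± 0.22) and Cyr61, the targets with the smallest p were Myof at -1.31 ± 0.43 and Axl at -1.09 ± 0.42 (edgeR adjusted p = 0.207 for Rbms3, Cyr61 and Myof and 0.223 for Axl).

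For the TGF-beta pathway, which induces Ctgf, Fn1, Postn and Tnc in fibroblasts, 15 of 15 genes were tested. Their median log2 fold change was -0.48, with 12 of 15 under 0, and by edgeR 0 were higher and 0 lower (1 and 4 at an unadjusted p under 0.05, against 9.49 and 10.9% of all genes). DESeq2 had 1 higher, Ltbp2, and 1 lower, against 2.75 and 3.34%. The ligand gene Tgfb3 was at -1.26 ± 0.42 and the latent TGF-beta binding protein genes Ltbp1 and Ltbp2 were at -1.06 ± 0.42 and 0.44 ± 0.12.

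The genes whose log2 CPM followed the mean of the 8 most closely over the 6 libraries, among 12076 genes ranked, were Myo9b (Pearson r = 0.9985), Ndn (0.9981), Zfp9 (0.9977), B4galt2 (0.9976), Tbx18 (0.9973), Ccdc8 (0.9971), Mex3b (0.9969) and P3h3 (0.9967). Their log2 fold changes ran from -1.49 (Ccdc8) to -0.63 (Myo9b). Among the genes that most closely followed Ctgf on its own were Chtf8 (r = 0.9942), Slfn5 (0.9913), Jcad (0.9901) and Edn1 (0.9848), of which Edn1, the vasoconstrictor peptide endothelin 1, had a log2 fold change of -0.98 and Chtf8 of -0.19. These values describe 6 libraries that share the treatment contrast and their depths, and with this many genes ranked some must lie near 1.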

How the data were processed

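Per the labels, RNA of 6 iWAT samples was sequenced, and the authors deposited unnormalized read counts for 54532 Ensembl genes, with symbols, mm10 coordinates and gene lengths. HISAT2, featureCounts and mm10 are named in the submitters' processing notes, without versions, strand setting or annotation release. Of the identifiers, 54495 matched GENCODE M21 on that build, and 27 symbols that had turned into dates were restored. Groups and replicate numbers come from the sample titles, and columns were matched through each sample's description.

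From these counts, TMM-scaled CPM and FPKM were computed. The filter filterByExpr kept 15591 genes, among them all 8 described. At these depths 3 reads, the detection floor, equal 0.130 to 0.209 CPM. The treatment contrast was fitted on all kept genes with edgeR's quasi-likelihood test, no replicate block, Benjamini-Hochberg adjustment and a threshold of 0.05, after the script was tested on simulated data. Log2 fold changes are estrogen over vehicle, with SE derived from the F statistic. Software was R 4.3.3 with edgeR 4.0.16, DESeq2 1.42.0 and limma 3.58.1. The genes, lists, tests and alternatives were chosen with earlier results of these data known. The text names the 8 genes, their tested relatives, up to 4 members of smallest p in each other list, and the genes most like the 8. A few genes that this rule names are not reported here. Libraries of a group differed beyond sampling noise (chi-square per degree of freedom of at least 45.9).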

Additional observations from a re-analysis of the deposited data

How the results depend on the processing

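All 8 genes had log2 fold changes below 0 in each of 14 alternatives. The genes were chosen for lower values and their groups did not overlap, so leaving out libraries could hardly turn a sign. Nothing is read from that count. The median of the 8 genes, -2.17, was between -2.51 and -1.54 when 1 library was left out in turn. It was -1.72 without both estrogen replicates 1 and 3, which carried the most B cell marker reads, an alternative chosen after seeing the data. That fit keeps only estrogen replicate 2 in its group, the highest estrogen library for 6 of the 8 genes. The median of the 8 genes under the other settings was close to the main value. It was between -2.19 and -2.08 with DESeq2's size factors, DESeq2's test, no low-count filter, limma-voom, robust estimates or a replicate block. The number of genes called, 0 higher and 0 lower, was 386 and 468 with DESeq2's test. It was 0 to 13 higher and 0 lower when 1 library was left out. The cause was not tested. With a replicate block 0 genes were called in each direction. Same-numbered libraries correlated at -0.196, 0.201 and 0.312 in their deviations from the group means, and different-numbered ones at -0.441 to 0.208. Deviations within a group sum to 0, so these values cannot decide whether the numbers pair the samples. The main fit used no pairing, as the labels state none. In the order of levels, 0 of 7 neighbouring pairs passed with transcript lengths either. Plain library totals cancel in a difference between genes of the same library, so that setting could not change these results. When 1 library was left out, the log2 difference of Ctgf over Tnc was between -0.154 (reversed, without estrogen replicate 3) and 0.657, and that of Thbs1 over Thbs3 between -0.0493 (reversed, without vehicle replicate 1) and 0.407. With 5 libraries the exact permutation test cannot go below p = 0.0625. No setting moved the median of all genes by more than 0.1 on the log2 scale. Tnn and Wisp1 each had an estrogen library at or under the 3-read floor, which limits the precision of their values.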
